A study of Mus musculus with 6 samples.

Results

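The hemidesmosome and laminin genes are 7 genes named by symbol, Itga6, Itgb4, Col17a1, Dst, Plec, Lama3 and Lamb3, each found on 1 row among the 32285 genes of all 3 count matrices. Hemidesmosomes rivet the basal face of an epithelial cell to the basement membrane. Outside the cell the integrin α6β4, a pair made from Itga6 and Itgb4, and the transmembrane collagen Col17a1 meet a laminin trimer that holds the products of Lama3 and Lamb3. Inside the cell the plakins Plec and Dst tie the integrin to keratin filaments. In stratified epithelium these proteins hold the basal layer down, and in glands they are known from the basal duct cells and the contractile myoepithelial cells that sit on the basement membrane.

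Messenger RNA of single cells from the submandibular salivary gland of female wild-type C57BL/6J mice was counted in droplets with unique molecular identifiers (UMIs). The basal sort held untreated cells that stained for Epcam and highly for Cd49f. The irradiated epithelium held Epcam-positive cells taken 90 days after 30 Gy to the left gland, and the untreated epithelium held Epcam-positive cells without treatment. Each of these 3 groups was 1 library of 3 pooled mice that hashtag antibodies tell apart, so library and group cannot be told apart. Mice of all groups are labelled 8 to 10 weeks old, without a word on whether that was at irradiation or at collection, so irradiation and age cannot be told apart either. Cells positive for Cd3, Cd16/Cd32, Cd31 or Cd45 had been sorted away. Cd49f is the protein of Itga6, so the level of Itga6 in the basal sort is a check of the gate and is not a finding.

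The cells kept with a hashtag numbered 3073 in the basal sort, 2063 in the irradiated and 2090 in the untreated epithelium, and a mouse gave 9453656 to 18047682, 7172967 to 27813793 and 11368354 to 14466948 gene UMIs in that order. The median mitochondrial share per mouse was 4.51% to 5.15%, 4.11% to 4.79% and 9.02% to 9.98%. Cell classes were rebuilt from the counts without the 7 genes, and each is called by the marker list that led it. The libraries were clustered without batch correction, and different clusters hold the irradiated and the untreated cells of the granular duct-like and ionocyte-like classes. Basal duct-like cells of the basal sort carried 3765 ± 549 CPM (UMI counts of the summed cells scaled to a common total, mean ± SD, n = 3 mice) of the basal keratin Krt14 and 7.10 ± 0.798 CPM of the smooth muscle actin Acta2. The myoepithelial-like cells there carried 6000 ± 940 CPM of Krt14 and 9033 ± 146 CPM of Acta2. Against the sort, 115 cells of the basal sort were endothelial-like, with 1598 ± 230 CPM of Pecam1, the gene of Cd31, and 13.3 ± 11.9 CPM of Epcam. All levels below are CPM, and 3′ counts do not tell isoforms of a gene apart or give a length-scaled level, so no gene's level is set against another's. Itgb4 overlaps Galk1 and B230344G16Rik in RefSeq, Dst overlaps 5 other genes, and reads shared with them were not separated here.

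Promoter sequence from RefSeq (GRCm38.p6) is shown for 3 of the 7 members, Dst, Lamb3 and Col17a1, to set the starts of a plakin, a laminin and a collagen gene side by side. Itga6, Itgb4, Plec and Lama3 are named only. Dst, the plakin gene, has starts 148665 bases apart. Each line holds the 250 bases before a start, read 5′ to 3′ in the direction of the gene. Capitals mark matches on either strand to 4 motifs, with no match overlapping another: the TATA box TATAAA, the box CCAAT, the GC box spelled GGGCGG and the AP-1 motif TGANTCA. Dst lies on the plus strand of chromosome 1, where the first window spans chr1:34011345-34011594 and the second chr1:34160010-34160259.
Dst first start: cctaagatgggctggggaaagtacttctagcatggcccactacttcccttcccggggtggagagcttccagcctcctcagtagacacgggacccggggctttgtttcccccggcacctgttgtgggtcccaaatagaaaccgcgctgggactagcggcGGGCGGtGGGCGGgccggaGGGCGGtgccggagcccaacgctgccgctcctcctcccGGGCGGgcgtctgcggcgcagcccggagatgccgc
Dst second start: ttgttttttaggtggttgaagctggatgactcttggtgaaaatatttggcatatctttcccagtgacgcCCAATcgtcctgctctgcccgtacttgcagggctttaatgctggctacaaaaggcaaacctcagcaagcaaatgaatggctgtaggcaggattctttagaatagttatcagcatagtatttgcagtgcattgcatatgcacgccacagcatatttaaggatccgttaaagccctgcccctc
Lamb3 lies on the plus strand at chr1:193301744-193301993, and the window of a second Lamb3 start, which follows it directly, held none of the motifs and is not shown.
Lamb3: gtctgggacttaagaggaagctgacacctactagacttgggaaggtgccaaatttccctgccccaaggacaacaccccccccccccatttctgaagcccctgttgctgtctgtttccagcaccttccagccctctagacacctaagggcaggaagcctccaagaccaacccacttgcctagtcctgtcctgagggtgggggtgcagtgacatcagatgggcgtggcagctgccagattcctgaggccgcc
Col17a1 lies on the minus strand at chr19:47692043-47692292.
Col17a1: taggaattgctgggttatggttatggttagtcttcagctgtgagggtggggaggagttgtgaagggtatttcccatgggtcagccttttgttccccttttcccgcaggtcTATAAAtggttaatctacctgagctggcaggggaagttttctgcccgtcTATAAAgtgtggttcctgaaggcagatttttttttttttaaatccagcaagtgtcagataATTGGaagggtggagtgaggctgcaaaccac
Col17a1 held TATAAA 140 and 91 bases ahead of its start, a motif found in 12.4% of the 32851 windows of the table, and CCAAT in reverse 31 bases ahead. The first Dst window held GGGCGG 4 times, a motif found in 32.7% of windows, and the second held CCAAT once, a motif found in 33.8%. The Lamb3 window shown held none of the 4. TGANTCA was in none of the 5 windows of these genes, against 6.75% of all windows. A match describes letters and no bound factor.

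Within the basal sort, basal duct-like cells differed from myoepithelial-like cells in all 7 genes, and in both directions. Basal duct-like cells were higher in Itgb4, Dst and Plec, the integrin β subunit and both plakins. They were lower in Itga6, Col17a1, Lama3 and Lamb3, the integrin α subunit, the transmembrane collagen and both laminin chains. The comparison used sums of 681 to 1046 basal duct-like and 30 to 117 myoepithelial-like cells per mouse, with the mouse as a block, in edgeR's quasi-likelihood F test with Benjamini-Hochberg adjustment over 11141 genes. Of all genes tested, 52.3% were called, 27.4% higher and 24.8% lower, so calls were common here. The median log2 fold change was -0.88 over the 7 genes and 0.03 over all genes tested.

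Itgb4, which pairs only with the α6 chain, stood at 125, 139 and 120 CPM in basal duct-like cells of mice 1, 2 and 3, against 41.7, 64.5 and 52.6 CPM in myoepithelial-like cells. Every basal duct-like sum lay above every myoepithelial-like one, and the log2 fold change was 1.74 ± 0.16 (SE, adjusted p = 4.82e-09). Itga6 went the other way, at 186, 162 and 168 CPM in basal duct-like cells, against 460, 552 and 458 CPM in myoepithelial-like cells. The groups did not overlap, and the log2 fold change was -1.09 ± 0.11 (adjusted p = 4.40e-08). The α chain can also pair with the integrin β1 chain, so its level need not follow Itgb4. Both classes passed the same Cd49f gate.

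Dst, a plakin gene whose isoforms are not told apart here, stood at 293, 307 and 310 CPM in basal duct-like cells. In myoepithelial-like cells it stood at 201, 176 and 290 CPM. Mouse 3 was the closest of the myoepithelial-like sums to the basal duct-like range, and the log2 fold change was 0.84 ± 0.13 (adjusted p = 1.16e-05). Plec, the plakin plectin, stood at 135, 117 and 127 CPM in basal duct-like cells, against 117, 96.8 and 93.2 CPM in myoepithelial-like cells. The lowest basal duct-like and the highest myoepithelial-like sum nearly met, and the log2 fold change was 0.70 ± 0.14 (adjusted p = 0.000195). The fold changes of this comparison are scaled by TMM, edgeR's library scaling, and the CPM are not. Plec averaged 126 ± 8.95 and 102 ± 12.7 CPM, and Dst 303 ± 8.99 and 222 ± 60.1 CPM, in that order. For Itgb4, Dst and Plec the fold changes are larger than the mean CPM give. For the other genes they are smaller in size, and the part of the scaling in the calls was not tested. Col17a1, the collagen BP180, stood at 48.5, 45.7 and 50.0 CPM in basal duct-like cells, against 120, 125 and 110 CPM in myoepithelial-like cells. These groups were far apart, at a log2 fold change of -0.88 ± 0.14 (adjusted p = 1.52e-05).

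Lama3, the α chain of the laminin trimer, stood at 30.7, 29.6 and 36.6 CPM in basal duct-like cells, against 181, 96.8 and 135 CPM in myoepithelial-like cells. The myoepithelial-like mice varied among themselves, but all 3 lay above the basal duct-like range, with a log2 fold change of -1.75 ± 0.16 (adjusted p = 7.19e-09). Lamb3, the β chain, stood at 67.1, 65.0 and 73.2 CPM in basal duct-like cells, against 256, 219 and 308 CPM in myoepithelial-like cells. The groups did not overlap, and the log2 fold change was -1.54 ± 0.13 (adjusted p = 9.41e-10). The myoepithelial-like cells of mouse 2, only 30, also held 864 CPM of the 6 pericyte markers, against 7.66 and 230 CPM in mice 1 and 3. Of the 864 CPM, 803 were Rgs5. The 8 immune markers summed to 1.15 to 1.34 CPM in basal duct-like cells, against 58.6 to 78.8 CPM in myoepithelial-like cells, where 5 of them were at 0, and their part in the result was not tested. All 7 calls kept their direction and their side of the threshold in each of 12 alternatives, which include leaving out each mouse, mouse 2 among them.

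**Figure D1:**
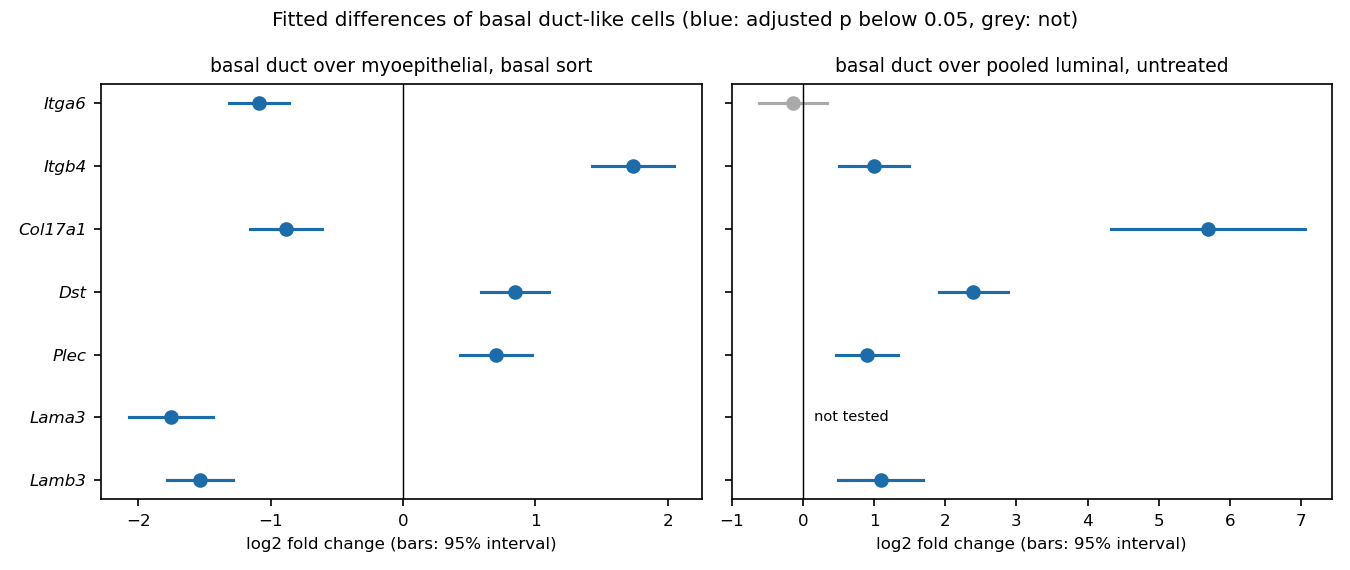
Log2 fold changes of the 7 genes with 95% intervals, for basal duct-like over myoepithelial-like cells of the basal sort (left) and over pooled luminal cells of the untreated epithelium (right). On the left Itgb4, Dst and Plec lie above 0 and the other 4 genes below it, and on the right only Itga6 spans 0, with Lama3 not tested.

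Per cell the 7 genes took the same directions after each cell was thinned to 2000 UMIs, though not clearly for Plec. The thinning left out 17 of 2612 basal duct-like and 0 of 216 myoepithelial-like cells of the basal sort. A UMI of Itgb4 was found in 21.5% of the 2595 basal duct-like cells and in 8.33% of the 216 myoepithelial-like cells (95% Clopper-Pearson intervals 19.97% to 23.2% and 5.01% to 12.9%, which cover counting error only). A UMI of Lamb3 was found in 12.8% of basal duct-like and 39.8% of myoepithelial-like cells, with intervals of 11.6% to 14.2% and 33.2% to 46.7%. For Plec the shares were 22.9% and 18.5% in that order, and the intervals overlapped (21.3% to 24.6% and 13.6% to 24.4%). Before thinning these shares were 75.7% and 35.6% for Itgb4 and 56.7% and 86.1% for Lamb3, at median depths of 14140 and 9698 UMIs. As a measure of stray RNA, 0 of 100 thinned endothelial-like cells of the same library held a UMI of Col17a1, which allows up to 3.62%, and 2.00% held one of Lamb3, at a median depth of 3276 UMIs. Itgb4 was found in 3.00% of them, with an interval of 0.623% to 8.52% that overlaps that of the myoepithelial-like cells. A basal duct-like cell held UMIs of 1.41 ± 0.0234 of the 7 genes on average at this depth, against 1.88 ± 0.107 in a myoepithelial-like cell (SD over 3 mice).

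The basal duct-like cells of the basal sort were not uniform. They fell into 4 clusters (numbered 0 to 3), and cluster 2, of 105 cells, stood apart in 5 of the 7 genes. Its leading genes were Tnc, Krt6a, Orm1 and Ifi202b, and 5 of the 6 basal duct markers, 3 of the 6 striated duct markers and 3 of the 7 luminal duct markers were raised in it. The 7 genes took no part in the clustering, but the clusters come from other genes of the same cells, so these levels are given with no test.

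Itgb4 averaged 449 ± 50.3 CPM in cluster 2, with 491, 393 and 464 CPM in its 3 mice. In clusters 0, 1 and 3 it averaged 119 ± 14.5, 113 ± 21.0 and 116 ± 13.4 CPM. No mouse of those 3 clusters passed 137 CPM, so cluster 2 lay wholly above them. Col17a1 averaged 185 ± 36.5 CPM in cluster 2, and 39.9 to 45.7 CPM in the other 3 clusters. Lama3 averaged 155 ± 8.98 CPM in cluster 2, against 23.0 to 29.9 CPM in the others, and Lamb3 206 ± 8.96 CPM, against 54.6 to 78.9 CPM. For Lama3, cluster 2 lay inside the range of the myoepithelial-like cells of this sort, and for Lamb3 just under it (219 to 308 CPM there). Itga6 averaged 338 ± 51.1 CPM in cluster 2, 203 ± 20.2 in cluster 0, 163 ± 7.51 in cluster 3 and 103 ± 7.63 CPM in cluster 1. The plakins did not set cluster 2 apart. Dst averaged 328 ± 23.6 CPM in it and 331 ± 22.1 CPM in cluster 0, with 306 ± 13.2 in cluster 3 and 235 ± 19.6 CPM in cluster 1. Plec averaged 151 ± 20.7 CPM in cluster 2 and 149 ± 14.0 CPM in cluster 0, and was lowest, at 85.5 ± 3.16 CPM, in cluster 1. Cluster 1 was thus low in Itga6, Dst and Plec, while its mice overlapped those of clusters 0 and 3 in Itgb4, Col17a1 and Lama3.

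**Figure D2:**
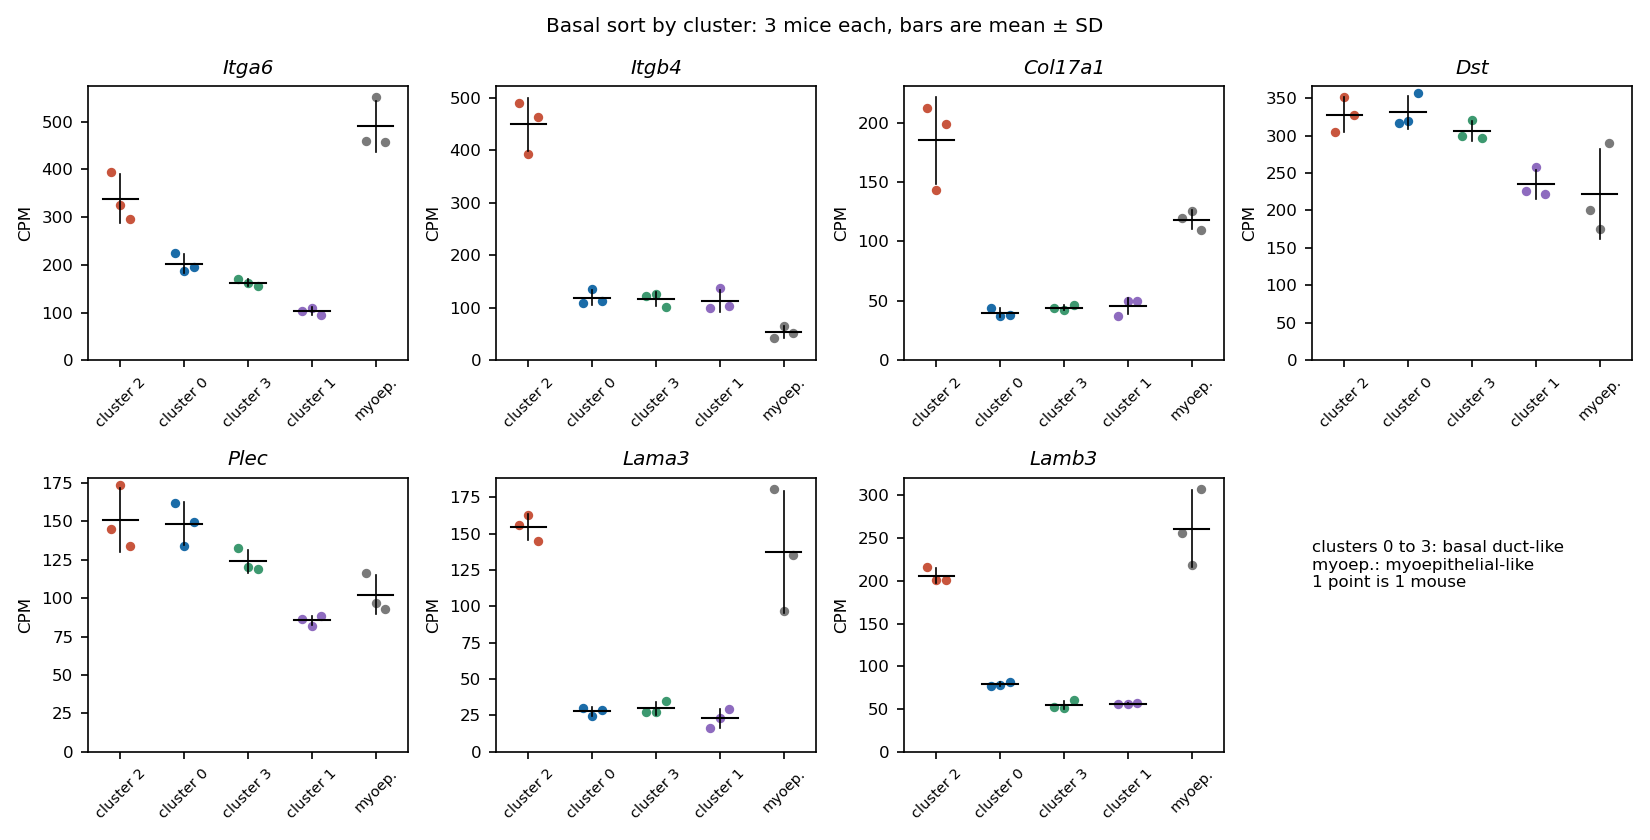
CPM of each gene per mouse in the 4 basal duct-like clusters and the myoepithelial-like cells of the basal sort, with mean ± SD over 3 mice. Cluster 2 lies above the other basal duct-like clusters for Itga6, Itgb4, Col17a1, Lama3 and Lamb3, and beside cluster 0 for Dst and Plec.

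Against luminal cells, basal duct-like cells of the untreated epithelium were higher in 5 of the 6 genes that could be tested. Col17a1 and Dst carried the largest differences, and Itga6 was not called. The test set 14 to 24 basal duct-like cells per mouse against the pooled intercalated duct-like, luminal duct-like, granular duct-like, ionocyte-like and acinar-like cells of the same mouse, over 10540 genes. Of these, 28.1% were called, 12.3% higher. The median log2 fold change was 1.04 over the 6 genes and -0.21 over all genes tested. Lama3 did not pass the filter on low counts.

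Col17a1 stood at 34.1, 39.1 and 12.2 CPM in basal duct-like cells, against 0.261, 0.305 and 0.376 CPM in the luminal pool. The lowest basal duct-like mouse was still far above the pool, and the log2 fold change was 5.69 ± 0.69 (edgeR adjusted p = 8.94e-12). Dst stood at 221, 153 and 85.6 CPM in basal duct-like cells, against 18.5, 16.1 and 17.7 CPM in the pool. The basal duct-like mice spread widely without reaching the pool, and the log2 fold change was 2.40 ± 0.25 (adjusted p = 3.98e-15). Lama3, with 0, 19.6 and 15.3 CPM in basal duct-like cells and 0.0869, 0.382 and 0.376 CPM in the pool, overlapped because mouse 1 had no count in its 14 cells.

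Itgb4 averaged 95.2 ± 13.2 CPM in basal duct-like cells and 30.7 ± 2.98 CPM in the pool, a log2 fold change of 1.00 ± 0.25 (adjusted p = 0.00108). Lamb3 averaged 58.5 ± 8.53 and 17.1 ± 1.22 CPM in that order, a log2 fold change of 1.09 ± 0.31 (adjusted p = 0.00333). Plec averaged 143 ± 23.7 and 48.4 ± 5.59 CPM, a log2 fold change of 0.90 ± 0.23 (adjusted p = 0.000864). For these 3 genes no basal duct-like mouse overlapped the pool. Itga6 stood at 96.5, 130 and 58.1 CPM in basal duct-like cells, against 74.8, 58.9 and 64.7 CPM in the pool. These ranges overlapped, and the log2 fold change was -0.15 ± 0.24 (adjusted p = 0.704). The 8 granular duct markers made up 92989 to 101319 CPM of the pool, against 945 to 1130 CPM in basal duct-like cells. The edgeR fold changes are scaled by TMM and the CPM are not, and Itga6 had a higher mean CPM in basal duct-like cells but a fold change below 0. The part of the granular duct markers in this gap was not tested.

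The comparison depended on which luminal cells and which library were used for some genes. Against intercalated duct-like cells alone, 3 of the genes were called, and Itgb4 was not (adjusted p = 0.0605). Without mouse 1 Lamb3 missed the threshold (adjusted p = 0.0567). Within the basal sort the TMM-scaled edgeR log2 fold change of Itga6 in basal duct-like over luminal cells was 0.60 (adjusted p = 0.0191). It was 0.82 against intercalated duct-like cells alone (adjusted p = 6.87e-05). The CPM ranges overlapped, at 172 ± 12.1 in basal duct-like, 177 ± 27.9 in pooled luminal and 158 ± 37.4 in intercalated duct-like cells. All of these cells passed the Cd49f gate, so these values are no finding on Itga6. In the same 2 fits the log2 fold changes were 3.86 and 4.66 for Dst, 1.67 and 1.98 for Plec, 1.45 and 6.11 for Lamb3, and 1.10 and 1.15 for Itgb4. Lamb3 thus differed most by which luminal cells were used, but on few counts. The 6.11 rests on 1 count of Lamb3 in the 109 intercalated duct-like cells of the basal sort. Of the 31 counts in the luminal pool of that sort, 30 came from 10 luminal duct-like cells. Against untreated intercalated duct-like cells alone the log2 fold change of Lamb3 was 4.20, with Dst at 3.96 and Plec at 1.76.

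**Figure D3:**
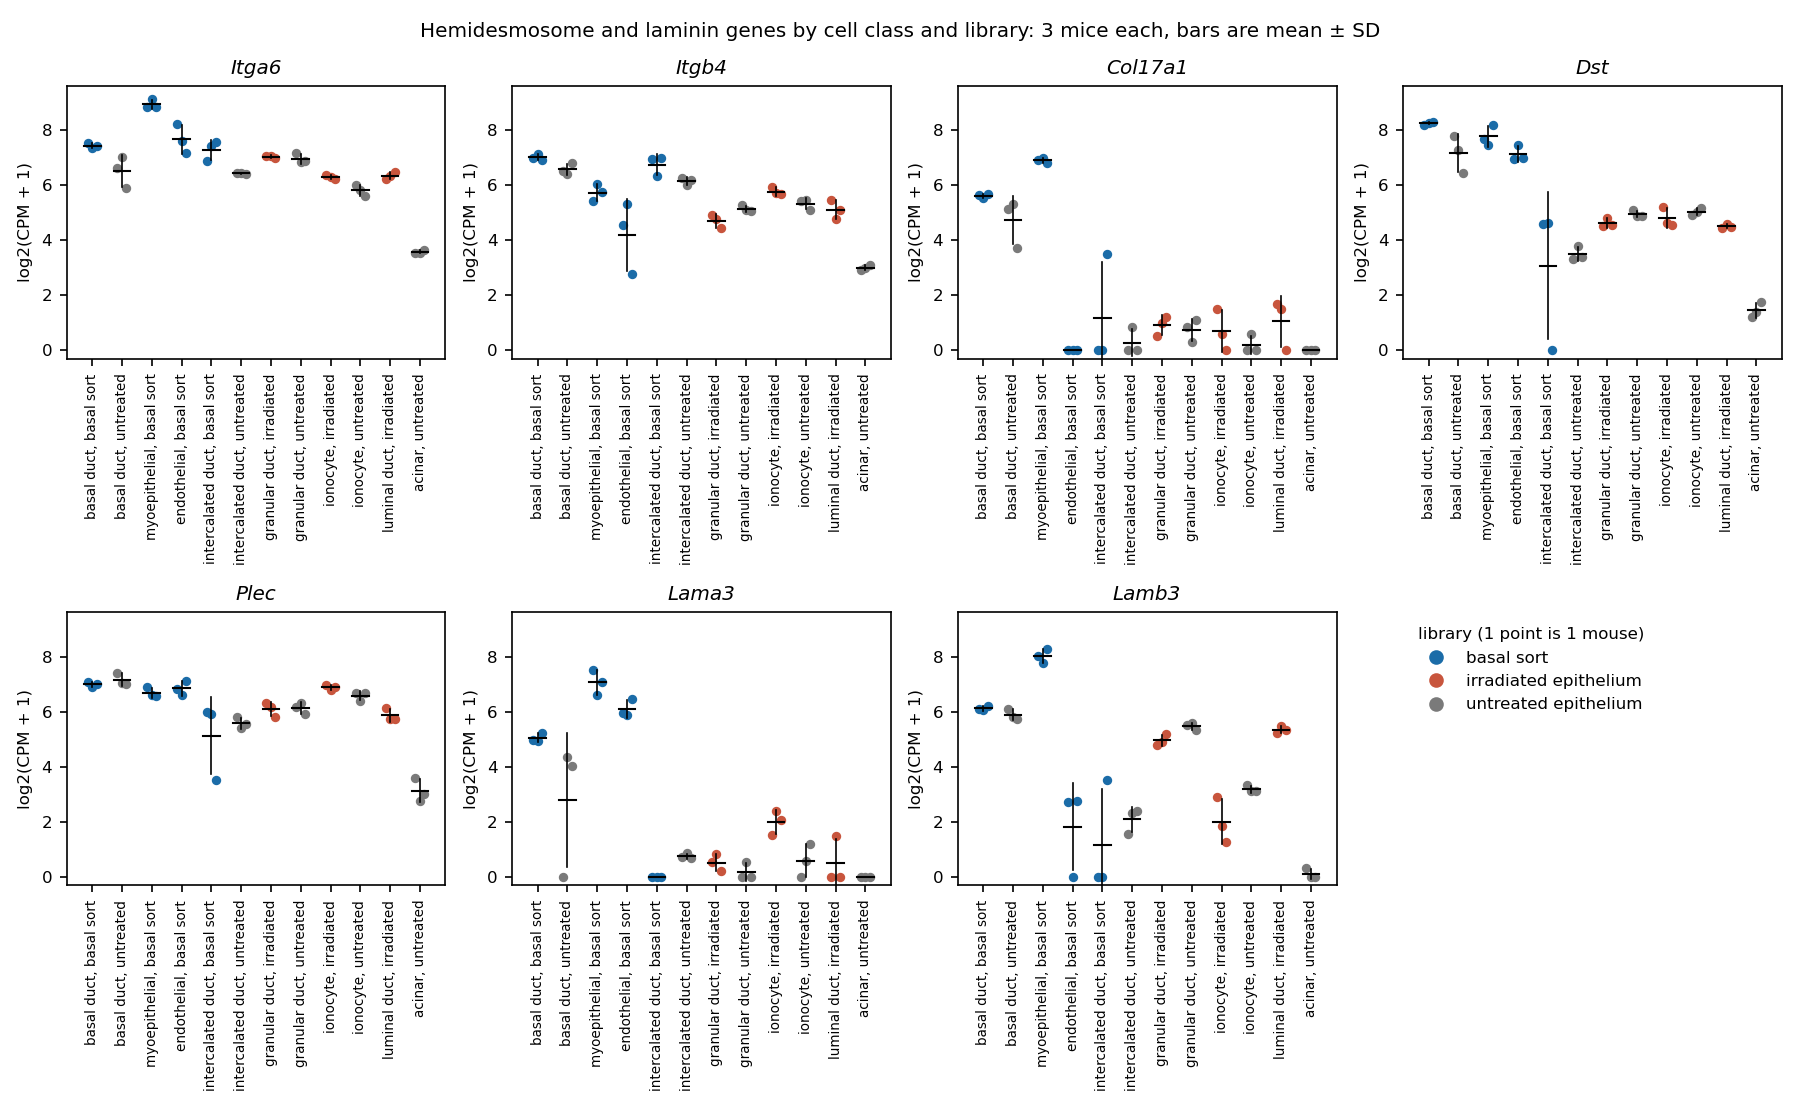
Level of each gene as log2(CPM + 1) per mouse in 12 pairs of class and library with at least 10 cells in each of 3 mice, with the mean ± SD of the log values. Col17a1 and Lama3 lie at 2.19 CPM or less in the luminal classes, apart from Col17a1 in 1 mouse of the intercalated duct-like cells of the basal sort (10.4 CPM) and Lama3 in irradiated ionocyte-like cells (1.86 to 4.27 CPM), while Itga6, Itgb4 and Plec lie well above 0 in all luminal classes but acinar-like cells, where they are lowest.

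Across the 12 pairs of class and library with at least 10 cells in every mouse, each gene had its own order. These orders are of CPM without TMM scaling, and the share of UMIs in granular duct markers differs between classes. Itgb4 was highest in basal duct-like cells of the basal sort (128 ± 9.95 CPM). The next pair was intercalated duct-like cells of the same sort (109 ± 26.1 CPM), whose range overlapped it, and then basal duct-like (95.2 ± 13.2 CPM) and intercalated duct-like cells (70.8 ± 6.95 CPM) of the untreated epithelium. Intercalated duct-like cells therefore held Itgb4 above the myoepithelial-like cells of the basal sort (52.9 ± 11.4 CPM), and the ranges of the basal sort did not overlap. They held almost no Col17a1 (0.270 ± 0.467 CPM), Lama3 (0.683 ± 0.111 CPM) or Lamb3 (3.39 ± 1.28 CPM) in the untreated epithelium. In that library 1 of 521 thinned intercalated duct-like cells had a UMI of Col17a1, at a share of 0.192%, against 8.33% of 60 basal duct-like cells.

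Itga6 was highest in myoepithelial-like cells (490 ± 53.6 CPM). Endothelial-like cells of the basal sort followed (213 ± 79.8 CPM), overlapping basal duct-like (172 ± 12.1 CPM) and intercalated duct-like cells (158 ± 37.4 CPM) of that sort. Granular duct-like cells came next, at 130 ± 4.61 CPM in the irradiated and 124 ± 16.2 CPM in the untreated epithelium, and their ranges overlapped with that of untreated basal duct-like cells (94.98 ± 36.2 CPM). Acinar-like cells were lowest, at 11.02 ± 0.523 CPM. The endothelial-like cells also held Dst (141 ± 28.4 CPM), Plec (115 ± 21.4 CPM) and Lama3 (68.5 ± 15.7 CPM). Their Lama3 exceeded that of the basal duct-like cells in every mouse, but rested on 11, 3 and 15 counts in mice 1, 2 and 3. They held no count of Col17a1 and little Itgb4 (22.2 ± 16.4 CPM) or Lamb3 (3.78 ± 3.27 CPM).

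Plec was the most even of the 7 genes. It lay between 43.9 and 143 CPM in 11 of the 12 pairs, each neighbour in the order overlapping the next except below untreated ionocyte-like cells (95.3 ± 10.3 CPM), and fell under that span in acinar-like cells (7.98 ± 2.71 CPM). Dst separated the basal duct-like, myoepithelial-like and endothelial-like cells, at 141 to 303 CPM on average, from the luminal classes among the 12 pairs, at 1.77 to 31.9 CPM. Acinar-like cells had the lowest mean for 5 of the genes and no count of Col17a1 and Lama3.

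Both laminin genes were measured in basal duct-like and myoepithelial-like cells, but not together in some other classes. Lama3 averaged 138 ± 41.9 CPM in myoepithelial-like, 68.5 ± 15.7 in endothelial-like and 32.3 ± 3.78 CPM in basal duct-like cells of the basal sort, and 11.6 ± 10.3 CPM in untreated basal duct-like cells. In every luminal class of 10 or more cells per mouse it averaged 3.11 CPM or less. Lamb3 stood at 58.5 ± 8.53 CPM in untreated basal duct-like cells and 43.5 ± 4.09 CPM in untreated granular duct-like cells, and their ranges did not overlap. In those granular duct-like cells the 8 granular duct markers alone made up 275738 to 305947 CPM, against 945 to 1130 CPM in the basal duct-like cells. The CPM are not scaled for that, so the order of these classes holds for CPM only and was not tested. Irradiated luminal duct-like cells held 39.8 ± 3.76 CPM of Lamb3, overlapping the granular duct-like range. The untreated basal duct-like cells lay below the 15 untreated luminal duct-like cells in Lamb3, which held 104, 149 and 134 CPM from 36 counts (pooled 141 CPM, 95% Poisson interval 98.9 to 196). In the basal sort the basal duct-like cells held 68.4 ± 4.29 CPM, against 200.5, 119 and 89.2 CPM in 10 luminal duct-like cells. The Lamb3 of basal duct-like cells did not lie above that of every luminal class. With as few as 1 cell in a mouse, these luminal duct-like cells are not among the 12 pairs and were not tested, and those of the basal sort also held 11 counts of Lama3 (pooled 58.6 CPM, 29.3 to 105). Granular duct-like cells held counts of Lamb3 with Lama3 at 0.157 ± 0.272 CPM, and endothelial-like cells held Lama3 with little Lamb3. In granular duct-like cells thinned to 2000 UMIs, Lamb3 was found in 56 of 622 untreated cells (6.87% to 11.5%) and Lama3 in 0, which allows up to 0.591%. Unthinned, these shares were 49.8% and 0.319%.

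**Figure D4:**
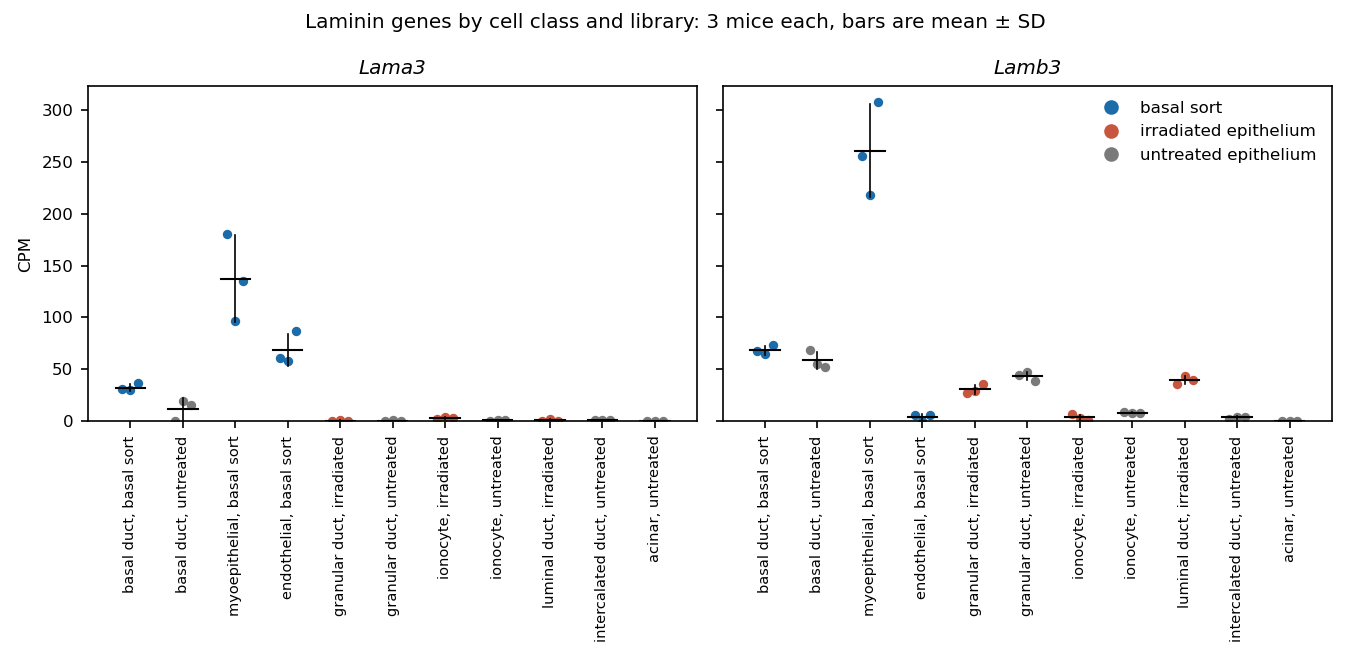
CPM of the laminin genes Lama3 and Lamb3 per mouse in 11 pairs of class and library, with mean ± SD over 3 mice. Lamb3 is seen in granular duct-like cells with Lama3 near 0, and Lama3 in endothelial-like cells with Lamb3 near 0.

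Basal duct-like cells of the Cd49f-high sort, set against basal duct-like cells of the untreated epithelium, were higher in Dst and Itga6 and in no other of the 7 genes (edgeR, 10438 genes, 6.49% called, 4.12% higher and 2.37% lower). Dst stood at 293, 307 and 310 CPM in the basal sort, against 221, 153 and 85.6 CPM in the untreated epithelium. The groups did not overlap, and the log2 fold change was 1.21 ± 0.21 (adjusted p = 0.00175). Itga6 stood at 186, 162 and 168 CPM in the sort, against 96.5, 130 and 58.1 CPM, with a log2 fold change of 1.01 ± 0.22 (adjusted p = 0.0102), as a check of the gate. The other 5 genes had adjusted p from 0.0671 for Lama3 to 0.996 for Plec, with log2 fold changes of 0.56 ± 0.18 for Itgb4, 0.96 ± 0.32 for Col17a1 and 1.40 ± 0.44 for Lama3. With no filter on low counts 5 genes were called, and without mouse 3 of the untreated epithelium or mouse 1 of the basal sort Itga6 was not (1 gene called each). The untreated side rests on 14, 24 and 23 cells, and sort and library cannot be told apart. Of 2612 basal duct-like cells of the sort 1103 were in cluster 3, against 9 of 61 untreated ones. The 7 luminal duct markers summed to 4943 to 5196 CPM in basal duct-like cells of the sort and 8773 to 11325 CPM in untreated ones, and the 6 acinar markers to 4.26 to 5.65 and 335 to 502 CPM. The intercalated duct markers summed to 11.4 to 19.6 and 278 to 312 CPM, the granular duct markers to 114 to 505 and 945 to 1130 CPM, and the basal duct markers to 6642 to 8397 and 4878 to 5331 CPM. The part of these differences in the calls was not tested.

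The irradiated epithelium held 3, 11 and 6 basal duct-like cells per mouse, too few for a test, so their counts are given with exact Poisson intervals that cover counting error only. Pooled over the 20 cells, Itga6 had 71 counts or 176 CPM (95% interval 138 to 223) and Itgb4 45 counts or 112 CPM (81.6 to 150). Col17a1 had 32 counts or 79.5 CPM (54.4 to 112), and Dst 39 counts or 96.9 CPM (68.9 to 133). Lama3 had 29 counts or 72.1 CPM (48.3 to 104), with 0, 22 and 7 counts in mice 1, 2 and 3. Lamb3 had 31 counts or 77.0 CPM (52.3 to 109) and Plec 37 counts or 92.0 CPM (64.7 to 127). All 7 genes were thus detected in these cells. They also held 4042 ± 1924 CPM of Krt14, against 2609 ± 467 CPM in untreated basal duct-like cells. Of the 20 cells, 5 were in cluster 2, against 4 of 61 untreated basal duct-like cells, and these counts were not tested. Irradiated mice gave 4 myoepithelial-like cells and untreated ones 17. The untreated ones, which had 0 and 90.7 CPM of Krt5 in the 2 mice that held any, against 645 ± 37.7 CPM in the basal sort, are not described further.

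Irradiation was compared within granular duct-like and ionocyte-like cells, the luminal classes with enough cells in all mice. In granular duct-like cells, 2 of the 5 members that passed the filter on low counts were lower after irradiation, Lamb3 and Itgb4, and the other 3 were not called. Of the 9634 genes tested with edgeR, 39.5% were called, 19.5% higher and 20.1% lower. The median log2 fold change was -0.32 over the 5 genes and -0.04 over all.

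Lamb3 stood at 27.0, 29.0 and 35.4 CPM in irradiated granular duct-like cells, against 44.3, 47.1 and 39.0 CPM in untreated ones. The groups did not overlap, and the log2 fold change was -0.51 ± 0.15 (adjusted p = 0.0169). Itgb4 stood at 29.0, 26.2 and 20.6 CPM, against 37.4, 33.4 and 32.5 CPM, without overlap and at a log2 fold change of -0.46 ± 0.13 (adjusted p = 0.0142). Dst stood at 22.0, 27.3 and 22.3 CPM, against 33.2, 28.7 and 28.8 CPM, with a log2 fold change of -0.32 ± 0.13 that missed the threshold (adjusted p = 0.0651). Itga6 and Plec overlapped between the groups, with adjusted p of 0.599 and 0.798. Without mouse 2 of the irradiated epithelium, neither Itgb4 nor Lamb3 was called. Itgb4 was lost in 5 of 15 alternatives, the others being DESeq2, mice by hashtag share, a stricter cell filter (at most 10% mitochondrial UMIs and at least 1000 genes) and leaving out mouse 1 of the untreated epithelium (adjusted p 0.0508 to 0.436 over the 5). Lamb3 was lost in 3, the others being Leiden resolution 2 and leaving out mouse 2 of the untreated epithelium (adjusted p 0.0792 to 0.306). Dst was called as lower in 2, at Leiden resolution 0.5 and with the members kept for clustering (adjusted p 0.0359 and 0.0313). Of 1015 irradiated cells of this class 909 were in cluster 9 and 101 in cluster 18, and of 626 untreated cells 201 were in cluster 10 and 425 in cluster 13. The 6 intercalated duct markers summed to 3.40 to 3.95 CPM in irradiated and 200 to 1389 CPM in untreated granular duct-like cells, the 6 acinar markers to 5.05 to 16.5 and 326 to 453 CPM, and the 7 luminal duct markers to 15174 to 18850 and 8799 to 11563 CPM. The median mitochondrial share was 3.99% in irradiated and 10.5% in untreated cells of the class. The part of these differences in the calls was not tested.

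In ionocyte-like cells, the acid-base transporting cells of the duct marked by Ascl3 and Foxi1, irradiation went with higher Itga6, Itgb4 and Plec and lower Lamb3. These are 4 calls among 5 members tested, 3 higher and 1 lower, where 25.9% of 8888 genes were called, 15.1% higher and 10.7% lower. The median log2 fold change was 0.32 over the 5 genes and -0.02 over all.

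Itga6 stood at 80.8, 77.8 and 74.2 CPM in irradiated ionocyte-like cells, against 62.7, 56.3 and 47.3 CPM in untreated ones. The groups did not overlap, and the log2 fold change was 0.51 ± 0.12 (adjusted p = 0.00573). Itgb4 stood at 60.4, 51.0 and 49.9 CPM, against 41.5, 43.0 and 33.2 CPM, without overlap and with a log2 fold change of 0.45 ± 0.13 (adjusted p = 0.0232). Both integrin chains were thus higher in these cells. Plec stood at 124, 110 and 117 CPM, against 100, 83.4 and 102 CPM, a log2 fold change of 0.32 ± 0.10 (adjusted p = 0.0285). Lamb3 was low throughout, at 6.5, 2.59 and 1.43 CPM in irradiated cells, against 9.08, 7.68 and 7.66 CPM in untreated ones. Its log2 fold change was -1.53 ± 0.38 (adjusted p = 0.00932). Dst was not called (adjusted p = 0.272). Lama3 was too low for the test, at 1.86, 4.27 and 3.21 CPM in irradiated and 0, 0.512 and 1.28 CPM in untreated cells.

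Several of these calls depended on the setting. With the stricter cell filter, no member was called in ionocyte-like cells. Without mouse 2 of the irradiated epithelium 1 member was called, Itga6. Plec was lost in 7 of 15 alternatives, Itgb4 in 5 and Lamb3 in 2. The 6 basal duct markers summed to 51.8 to 257 CPM in irradiated and 1.28 to 31.1 CPM in untreated ionocyte-like cells, and the 7 fibroblast markers to 215 to 503 and 39.4 to 94.6 CPM. In the same order the acinar markers summed to 5.57 to 6.06 and 483 to 843 CPM, the granular duct markers to 1528 to 2627 and 5640 to 7612 CPM, the intercalated duct markers to 158 to 180 and 491 to 1312 CPM, and the luminal duct markers to 15869 to 17353 and 6634 to 7927 CPM. The median mitochondrial share of these cells was 6.03% in the irradiated and 12.1% in the untreated epithelium. The part of these differences in the calls was not tested. Of 651 irradiated cells 650 were in cluster 17, and all 518 untreated cells were in cluster 11.

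The irradiation effect on Itgb4 differed between both classes, by 0.91 ± 0.17 on the log2 scale (ionocyte-like minus granular duct-like, adjusted p = 0.00116), in a fit in which 13.2% of 10486 genes were called, 6.21% above 0 and 6.97% below. The interaction was not called for Itga6 (0.42 ± 0.14, adjusted p = 0.0607), Plec (0.36 ± 0.16, adjusted p = 0.166), Dst (0.01 ± 0.22, adjusted p = 0.993) or Lamb3 (-1.03 ± 0.39, adjusted p = 0.0932).

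The irradiated epithelium held 5, 7 and 0 intercalated duct-like cells per mouse, too few for this test as processed. A comparison with untreated intercalated duct-like cells could be made under 2 alternatives, the stricter cell filter and Leiden resolution 2. Both group the cells anew, and the test needs at least 10 cells in every mouse. The irradiated cells of this class there thus include cells that had another class or no class name as first grouped. Which cells these were, and how many, is not reported here. Of the 7711 and 7944 genes tested in that order, 1143 and 1163 were called higher and 791 and 713 lower. None of the 3 and 4 members tested was called. Itga6 stood at a log2 fold change of 0.41 in both (adjusted p = 0.168 and 0.191), Itgb4 at 0.38 and 0.18 (adjusted p = 0.366 and 0.729) and Plec at 0.77 and 0.61 (adjusted p = 0.0941 and 0.171). Dst, tested in the second, stood at 0.76 (adjusted p = 0.292).

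**Figure D5:**
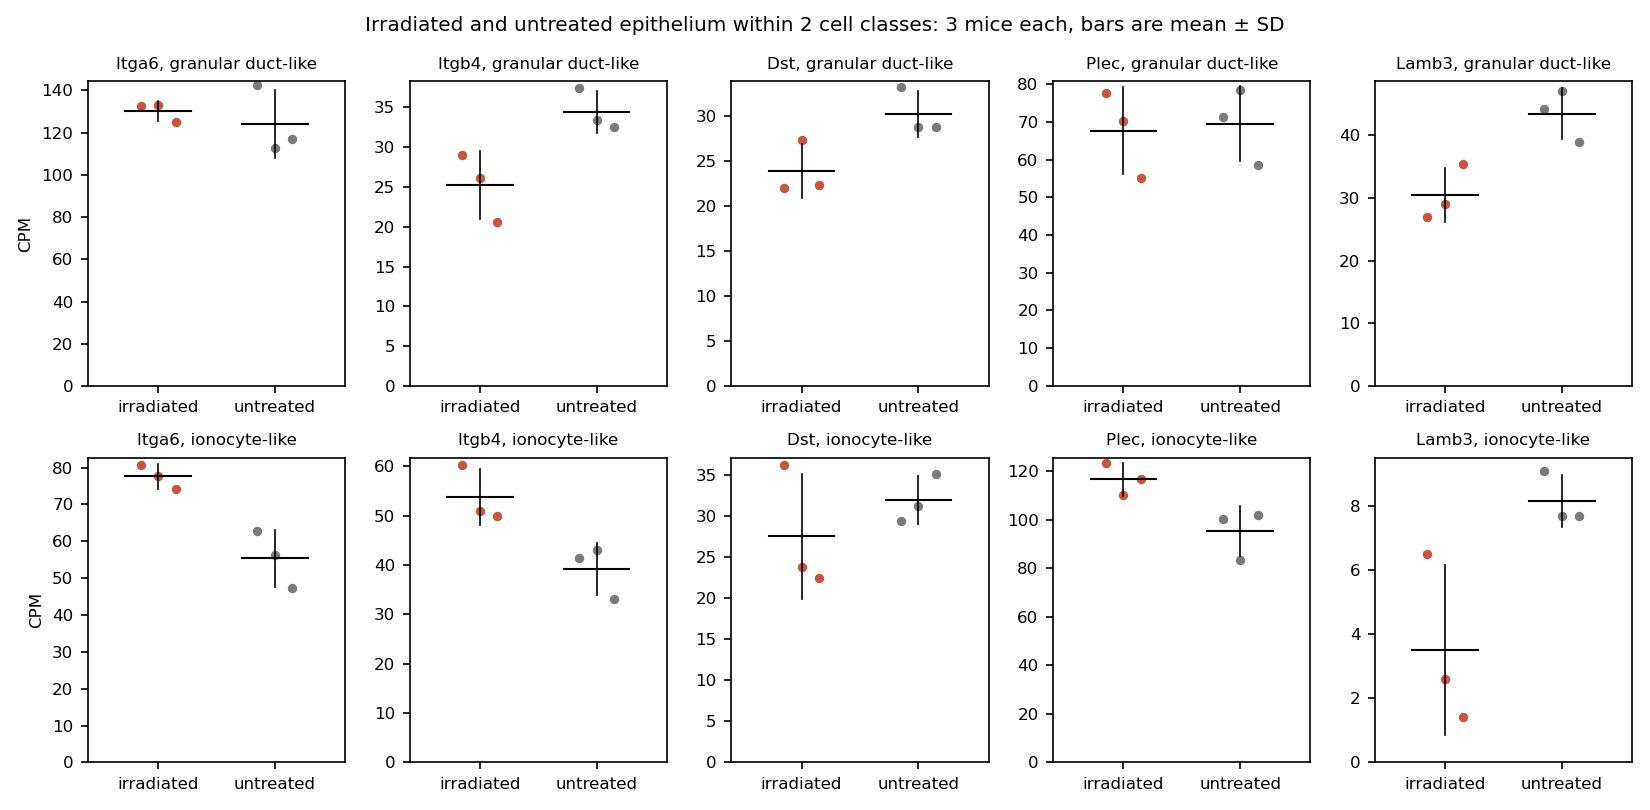
CPM of 5 members per mouse in irradiated and untreated granular duct-like (upper row) and ionocyte-like cells (lower row), with mean ± SD over 3 mice. Itgb4 lies lower in irradiated granular duct-like cells and higher in irradiated ionocyte-like cells, and Lamb3 lies lower in irradiated cells of both classes.

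Over all kept cells, where class make-up and level per cell cannot be told apart, the irradiated epithelium was higher than the untreated in Itga6, Plec and Lama3, 3 of 7 genes where 40.3% of 11870 genes were called, 20.7% higher and 19.6% lower. Itga6 averaged 113 ± 4.86 CPM in irradiated and 68.6 ± 7.96 CPM in untreated epithelium, a log2 fold change of 0.43 ± 0.08 (edgeR adjusted p = 0.00328). Plec averaged 80.9 ± 3.75 and 52.8 ± 5.22 CPM (0.32 ± 0.08, adjusted p = 0.0118), and this call was lost with mice by hashtag share and without mouse 3 of the untreated epithelium (adjusted p = 0.0708 and 0.0639). Lama3 averaged 2.86 ± 0.443 and 0.756 ± 0.575 CPM (1.59 ± 0.49, adjusted p = 0.0296), and this call was lost in 5 of 12 alternatives. Itgb4, Dst, Col17a1 and Lamb3 were not called. Their CPM in irradiated mice did not overlap those in untreated mice and lay higher, while the TMM-scaled log2 fold changes of Itgb4 and Dst were -0.09 ± 0.07 and -0.05 ± 0.08. With the stricter cell filter Dst was called as higher, at 0.30 (adjusted p = 0.0373), and without mouse 2 of the untreated epithelium Col17a1 was (adjusted p = 0.0478). Lama3 was also found in cluster 12, an irradiated cluster with no class name led by Dcpp3, Cxcl2 and Dcpp1, which had 21.3, 7.33 and 18.6 CPM of Lama3 in its 3 mice.

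The basal sort was higher than the untreated epithelium in all 7 genes over all kept cells, where 72.8% of 12885 genes were called and 36% were higher. Class make-up and level per cell cannot be told apart here either, and Itga6 is the check of the gate. Basal duct-like cells were 2612 of 3073 cells in the sort and 61 of 2090 in the untreated epithelium. Among basal duct-like cells alone, Dst and Itga6 were the only members called, as given above. Col17a1 averaged 49.8 ± 3.57 CPM in the sort and 0.919 ± 0.342 CPM in the untreated epithelium, and Lama3 37.5 ± 6.24 and 0.756 ± 0.575 CPM. Their log2 fold changes were 5.20 ± 0.20 and 5.06 ± 0.35 (edgeR adjusted p = 9.17e-08 and 1.60e-06). Dst averaged 292 ± 10.7 and 21.3 ± 1.74 CPM, at 3.26 ± 0.10 (adjusted p = 3.83e-08). The other 4 lay between 0.72 for Plec and 1.52 for Lamb3. This comparison and the irradiation comparison share the untreated mice as controls.

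Further genes of the basement membrane and of cell adhesion came from 4 lists. Of 24 basement membrane genes, which encode laminin, collagen IV and related sheet proteins, 20 were tested between basal duct-like and myoepithelial-like cells of the basal sort. Of these 4 were higher and 12 lower in basal duct-like cells, with a list median of -1.19, where 27.4% of all genes tested were higher and 24.8% lower. Col4a1, the collagen IV α1 chain, averaged 99.0 ± 5.88 CPM in basal duct-like and 456 ± 18.2 CPM in myoepithelial-like cells, at -1.81 ± 0.12 (edgeR adjusted p = 1.89e-11). Col4a2 went with it at -2.21 ± 0.15, as did Hspg2, the proteoglycan perlecan, at -2.07 ± 0.20. Against the luminal pool of the untreated epithelium, 6 of 11 tested genes of this list were higher and 0 lower, where 12.3% of all genes were higher and 15.8% lower. Col4a1 was among them at 53.2 ± 13.2 CPM, against 0.370 ± 0.132 CPM in the pool.

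In that comparison, where 12.3% of all genes were higher and 15.8% lower, 5 of 16 other integrins and adhesion partners were higher and 2 lower, 0 of 5 other plakins were higher and 2 lower, and of 6 proteases 1 was higher and 1 lower. Of 20 other integrins and adhesion partners, all tested between basal duct-like and myoepithelial-like cells, 5 were higher and 11 lower. For this list and those that follow here, 27.4% of all genes tested were higher and 24.8% lower. Itga1, a collagen-binding integrin chain, averaged 0.385 ± 0.123 CPM in basal duct-like and 86.4 ± 17.4 CPM in myoepithelial-like cells. The kindlins, which activate integrins, split between the classes. Fermt1 averaged 117 ± 4.18 CPM in basal duct-like and 33.9 ± 18.0 CPM in myoepithelial-like cells (2.01 ± 0.20, adjusted p = 2.21e-08). Fermt2 averaged 93.7 ± 14.4 and 466 ± 30.4 CPM in that order (-1.90 ± 0.12, adjusted p = 1.62e-11). Bcam, a receptor for laminin, was higher in basal duct-like cells (1.67 ± 0.21). Of 5 other plakins, 3 were higher and 1 lower, among them Eppk1 at 0.95 ± 0.22 and Ppl at -1.47 ± 0.37. Of 7 proteases that process laminins or shed Col17a1, 6 were tested, and 1 was higher and 1 lower. The lower one, Adam9, stood at -1.14 ± 0.30.

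After irradiation Itgb6 and Itgav, whose proteins can pair as an integrin, were higher in both luminal classes. Itgb6 averaged 111 ± 24.8 and 41.3 ± 2.73 CPM in irradiated and untreated granular duct-like cells (1.42 ± 0.14), and Itgav 34.9 ± 4.56 and 13.8 ± 2.71 CPM (1.32 ± 0.15). In ionocyte-like cells Itgav averaged 134 ± 24.5 and 24.2 ± 7.65 CPM (2.41 ± 0.18, adjusted p = 4.57e-07), and Itgb6 41.8 ± 11.9 and 22.2 ± 5.21 CPM (0.87 ± 0.21). Dag1, the laminin receptor dystroglycan, was lower in irradiated granular duct-like cells, at 13.3 ± 2.87 CPM against 32.2 ± 1.12 CPM (-1.30 ± 0.14). In these classes 5 and 7 basement membrane genes passed the filter on low counts, of which 2 and 4 were higher and 1 and 0 lower, where 19.5% and 15.1% of all genes were higher and 20.1% and 10.7% lower. Of the other integrins and adhesion partners 14 and 16 were tested, with 3 and 6 higher and 3 and 1 lower. Of 5 plakins 0 and 2 were higher and 0 lower in either class, and of the 4 and 5 proteases tested 1 and 0 were higher and 0 lower.

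Over 45 sums of class and mouse, the members' levels on the log2(CPM + 1) scale were most alike for Dst and Plec (Pearson r 0.83) and least for Itgb4 and Lama3 (0.02). Itga6 and Itgb4, whose proteins pair, had an r of 0.28, and Lama3 and Lamb3 one of 0.31. The sums share libraries and mice, and these values are a description. Among 7308 genes of at least 10 CPM, the mean of the members was most like Yap1 (0.89), the transcriptional coactivator, and Ttc19 (0.89). Col17a1 was most like Vsnl1 (0.96) and Trp63 (0.93), the transcription factor p63 of basal epithelial cells. Itgb4 was most like Cdh1 (0.89), the epithelial cadherin, Lama3 like Gja1 (0.94), a gap junction protein, and Dst like Dusp6 (0.88).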

How the data were processed

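Messenger RNA and hashtag tags of single cells were counted in 3 libraries, each of 3 mice. The deposited values were UMI counts per gene and cell, and the submitters' processing notes name Cell Ranger 6.1.2 and the mm10 build. From these counts, cells were kept if they had 500 or more genes and no more than 20% of UMIs from mitochondrial genes, mice were assigned with HTODemux (Seurat 5.3.0, quantile 0.99), hashtag doublets were removed and so were cells of high Scrublet score (scanpy 1.11.5, AUC 0.580 to 0.600 against hashtag doublets). No hashtag call was made for 22.6%, 11.2% and 43.4% of passing cells of the basal sort, irradiated and untreated epithelium. The libraries shared 15, 1 and 8 barcodes in pairs. Cells were clustered (30 principal components, Leiden resolution 1) without 63 genes, the members and the lists, and named from marker lists. The rule for naming mixed clusters was set after seeing cluster names.

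Counts were summed per mouse and class (at least 10 cells per mouse) and tested with edgeR 4.0.16's quasi-likelihood F test (filterByExpr, TMM, Benjamini-Hochberg, threshold 0.05), with the mouse as a block where both classes came from the same mice. On simulated data the comparison of basal duct-like with myoepithelial-like cells recovered 56 of 100 genes changed 2-fold and 94 of 100 changed 4-fold, with 13 false calls among 10919 genes. Only these genes were changed, as many up as down, whereas 52.3% of genes were called in the data. The simulation therefore does not give the error rate of that comparison. Nothing says that hashtag numbers pair mice across libraries, and their deviations did not correlate (r -0.19 to -0.03). With 3 mice per group an exact permutation test cannot go below p = 0.1, so none was run. DESeq2 1.42.0 and other alternatives are given in the closing section. The members and lists were chosen with earlier results of these data known. Of each list, up to 4 genes per comparison with the largest change were eligible to be named, if called, if the mice of both groups did not overlap and if the mean reached 10 CPM. A gene of the lists is counted in them and not reported here. The irradiated intercalated duct-like cells (5, 7 and 0 per mouse) were too few to test. Only 2 of the alternatives, which group the cells anew, gave this class enough irradiated cells.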

Additional observations from a re-analysis of the deposited data

Results flagged for a closer look

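The irradiation effect on Itgb4 differed between the classes, by 0.91 on the log2 scale (ionocyte-like minus granular duct-like cells, edgeR's quasi-likelihood test of the interaction). Itgb4 was higher in irradiated ionocyte-like cells of all 3 mice and lower in irradiated granular duct-like cells of all 3 mice than in any untreated mouse. It missed the threshold under 2 alternatives, the stricter filter on cells and the assignment of mice by their hashtag share.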

How the results depend on the processing

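All 7 calls between basal duct-like and myoepithelial-like cells and all 7 between the basal sort and the untreated epithelium held in each of 12 alternatives. Numbers of called genes moved more. Leaving out 1 mouse gave 3747 to 5943 genes for basal duct-like against myoepithelial-like cells (5825 with all mice), 1754 to 2227 against luminal cells (2964), 1518 to 2140 in ionocyte-like cells (2301), 247 to 663 for basal duct-like cells between sorts (677) and 861 to 1254 for the interaction (1382). Called members then numbered 1 to 4 over all irradiated cells (3 with all mice), 0 to 2 in granular duct-like cells (2), 1 to 4 in ionocyte-like cells (4), 1 to 3 between sorts (2) and 1 to 2 for the interaction (1). Under DESeq2, 1882 genes were called against luminal cells, 1432 in ionocyte-like cells with 2 members, 520 for the interaction, and 1 member in granular duct-like cells. With mice assigned by hashtag share, 1311 genes and 1 member were called in ionocyte-like cells, 650 genes for the interaction, 1 member in granular duct-like cells and 1 over all irradiated cells. With the stricter cell filter, 2518 genes and 1 member were called in granular duct-like cells, 1196 and 0 in ionocyte-like cells and 556 and 0 for the interaction, and the fold change of Dst over all irradiated cells turned to 0.30. Leiden resolution 2 gave 1 member in granular duct-like cells, 3 for the interaction and 1610 genes with 4 members between sorts, and keeping the members for clustering gave 2 members for the interaction and the same 1610 and 4 between sorts. Without a filter on low counts, 1042 genes and 5 members were called between sorts and 2 members for the interaction.

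Chosen after seeing the cell numbers, basal duct-like against luminal cells within the basal sort gave 4691 genes and turned Itga6 to 0.60. Against intercalated duct-like cells only it gave 3 members, and both changes together gave 4901 genes and Itga6 at 0.82. With hashtag number as a replicate block, 9206 genes were called for the basal sort, 3909 for irradiation over all cells, 3794 in granular duct-like cells, 2113 in ionocyte-like cells and 598 with 3 members between sorts. Without the mouse block 5751, 3253 and 1075 genes were called in the other 3 comparisons. The causes were not tested. Mice by hashtag share and a minimum of 20 cells gave no value for untreated basal duct-like cells.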

Other observations

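An irradiated cluster of 102 cells with few UMIs and no class name (35, 32 and 35 cells per mouse), in which 7 of 8 ionocyte markers were raised, held 145, 211 and 380 CPM of Itgb4 from 14, 21 and 31 counts. Plec stood there at 239, 412 and 649 CPM from 23, 41 and 53 counts. These levels lay above those of every irradiated ionocyte-like sum, and they are given with no test.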
